A study of Mus musculus with 19 samples.

Results

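The genes described here build and control the replicative helicase: Mcm2, Mcm3, Mcm4, Mcm5, Mcm6 and Mcm7, which encode the subunits of the MCM ring, and Mcm10, Cdt1, Cdc6 and Gmnn. They were chosen by gene symbol, which gave 10 of the 53379 gene rows of the table, and all 10 passed the filter on low values. RNA carrying a polyA tail was sequenced from 19 single mouse embryos of the hybrid background B6D2F1, made by in vitro fertilisation and grown in KSOM, a culture medium for preimplantation embryos. All embryos were taken 96 hours after insemination, so a morula here is an embryo that had not become a blastocyst by that time. The parents of 16 embryos were heterozygous for a deletion of Alyref, an adaptor for mRNA export, or of Gabpb1, which codes for part of the ETS-family transcription factor GABP. In the Alyref cross (Alyref+/- x Alyref+/-) there were 2 morulae labelled Alyref KO (Alyref-/-), with 3 morulae and 3 blastocysts that were not KO. In the Gabpb1 cross (Gabpb1+/- x Gabpb1+/-) there were 3 morulae labelled Gabpb1 KO (Gabpb1-/-), with 2 morulae and 3 blastocysts that were not KO. The embryos called non-KO are WT or heterozygous, which the labels do not separate, and the last 3 blastocysts had WT parents. The submitters assigned KO from missing reads over the deleted region in these same libraries. How the deletions were made is not given in the sources used here.

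Gene counts came to between 7.49 and 31.5 M per embryo, and spike-in (ERCC) RNA took 0.501% to 1.95% of all counts. Levels of Alyref in CPM (gene counts scaled to library size) were 47.8 and 58.5 in its KO morulae. Its non-KO morulae held 210.3, 291 and 161 CPM. KO was assigned from reads of these same libraries, so the lower Alyref level is not an independent check of the labels. Gabpb1 was not lower where KO was labelled, at 78.2, 259 and 151 CPM against 93.8 and 83.3 CPM, and counts over a whole gene do not check a deletion of part of it. Each cross had its own fertilisations, and the labels give no sequencing batch, so the cross cannot be told apart from its batch. The labels call each library a separate embryo but do not say which embryos share parents or a fertilisation, so p-values measure the spread between these embryos. In whole embryos, fewer cells of a type and less RNA per cell cannot be told apart. Of the stage markers, the summed level of 7 trophectoderm genes was 3943 to 6589 CPM in blastocysts and 333 to 3995 CPM in morulae. The keratins weigh most in that sum: Krt18 reached 4115 CPM and Krt8 2084, but Gata3 327 and Cdx2 32.9. Among the epiblast markers used below, Nanog reached 511 CPM and Pou5f1 148, and among those of primitive endoderm Gata6 alone was at 76.2 to 188 CPM. The primitive endoderm markers summed to 124 to 271 CPM, and cumulus, sperm and oocyte markers reached at most 24.0, 2.01 and 9.72 CPM, with the sperm gene Tnp1 at 0 in all embryos.

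Replication origins are licensed before S phase. The origin recognition complex and CDC6 recruit CDT1 bound to the ring of MCM2 to MCM7, and the ring is loaded on DNA as an inactive double hexamer. Geminin, the product of Gmnn, binds CDT1 and blocks further loading, so that each stretch of DNA is copied once per cycle, and MCM10 acts later, when the loaded ring is converted to a moving helicase. The genes are classical targets of E2F transcription factors.

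Promoter windows from 250 bases before to 50 after the annotated start were held for 8 of the 10 genes in RefSeq's table for GRCm38.p6; Mcm4 and Gmnn are the others. The octamers TTTGGCGC, TTTCCCGC, TTTGCCGC and TTTCGCGC, letters that E2F factors are known to bind, were searched on both strands. At least 1 octamer stood in a window of 6 of the 8 genes (Mcm3, Mcm5, Mcm6, Mcm7, Cdt1 and Cdc6), against 2.26% of 32851 promoters. A gene can have more than 1 window, as Mcm7 does, while the share over all promoters counts each window. The windows of 30 bases below run 5′ to 3′ along the gene, with the octamers in capitals, and are shown because they are the sequence feature that most of these genes hold. A site read on the other strand appears as its reverse complement, and 2 octamers overlap in the Mcm5 window and in the first Mcm6 window.
Mcm3, chr1:20820266-20820295, minus strand: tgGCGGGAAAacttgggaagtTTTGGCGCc
Mcm5, chr8:75109347-75109376, plus strand: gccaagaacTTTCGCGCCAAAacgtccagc
Mcm6, chr1:128359795-128359824, minus strand: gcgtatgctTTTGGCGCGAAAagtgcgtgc
Mcm6, chr1:128359734-128359763, minus strand: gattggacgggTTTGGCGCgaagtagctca
Mcm7, chr5:138172030-138172059, minus strand: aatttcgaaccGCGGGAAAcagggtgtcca
Mcm7, chr5:138171849-138171878, minus strand: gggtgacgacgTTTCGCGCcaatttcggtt
Cdt1, chr8:122568035-122568064, plus strand: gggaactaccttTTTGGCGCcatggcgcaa
Cdc6, chr11:98908002-98908031, plus strand: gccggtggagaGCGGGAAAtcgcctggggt
The presence of these letters is a description and not evidence of binding in these embryos.

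All 10 genes were expressed in every embryo, the lowest value being 95 counts of Mcm3. Levels between genes are compared as FPKM, here CPM per kilobase of the deposited merged exon length. Gmnn had the highest mean level over the 19 embryos, 191 ± 39.4 FPKM (SD), and exceeded Mcm4, the next in order, in 19 of 19. The others followed at 42.0 ± 11.8 FPKM for Mcm4, 39.1 ± 12.8 for Mcm6, 32.1 ± 11.6 for Mcm5, 28.7 ± 9.19 for Cdt1 and 26.4 ± 4.77 for Mcm7. Cdc6 (18.3 ± 6.87 FPKM), Mcm3 (16.1 ± 7.32), Mcm2 (15.4 ± 5.19) and Mcm10 (13.2 ± 3.60) were lowest. Below Gmnn, the means of each neighbouring pair in this order differed by less than the SD of the difference within single embryos. Mcm7 exceeded Cdc6 in 16 of 19 embryos and Mcm6 exceeded Mcm5 in 15, while Mcm4 exceeded Mcm6 in 11 and Cdc6 exceeded Mcm3 in 10. Genes farther apart could be separate in every embryo: the lowest Mcm4 value, 24.8 FPKM, was above the highest Mcm10 value, 21.3 FPKM. The place of Mcm2 also rests on its merged exon length of 6956 bases: over its longest coding transcript of 3371 bases its mean was 31.8 FPKM and Mcm3 became the lowest of the 10.

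**Figure D1:**
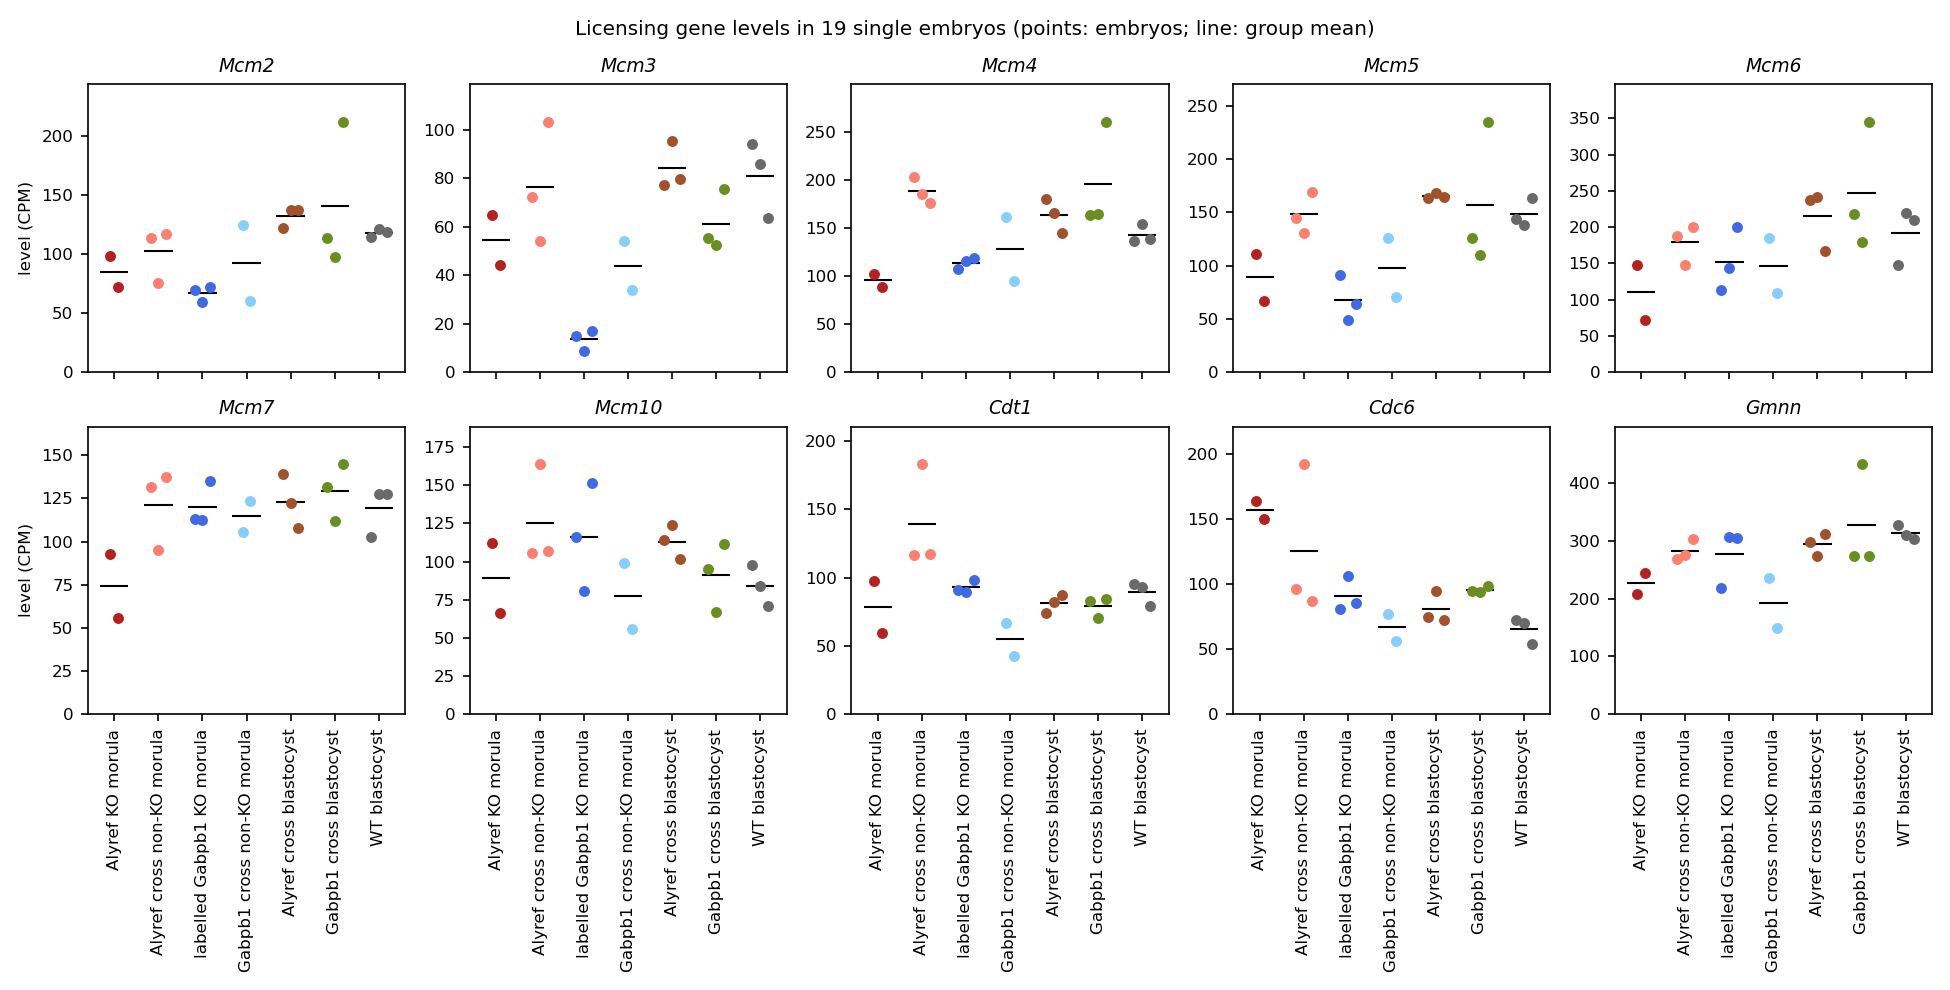
Level in CPM (vertical axis, from 0) of each of the 10 licensing genes in the 19 embryos, by group; points are embryos and lines are group means. The 3 morulae labelled Gabpb1 KO lie at 8.79 to 17.1 CPM for Mcm3, below every other embryo.

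Among the ring subunits, the clearest difference was in Mcm3 (ENSMUSG00000041859.10, GRCm38 chromosome 1, 20802968 to 20820312, minus strand), whose product sits between MCM5 and MCM7 in the ring. The 3 morulae labelled Gabpb1 KO held 15.0, 8.79 and 17.1 CPM of Mcm3. The 2 non-KO morulae of the cross held 53.9 and 33.8 CPM. The KO-labelled embryos lay below both, and also below all 16 other embryos, which ran from 33.8 to 103 CPM with a median of 68.4. The share of all genes that separate these 3 embryos from the other 16 was not computed. Mcm3 fell by 1.69 on the log2 scale (SE 0.33, adjusted p = 0.0224, edgeR's quasi-likelihood test with Benjamini-Hochberg adjustment over 18410 genes), from 43.9 ± 14.2 CPM (SD, n = 2) to 13.6 ± 4.31 CPM (SD, n = 3). It was the only one of the 10 genes called in this comparison, in which 1.65% of all genes tested were called in either direction and 1.3% as lower. With Cdt1 and Gmnn it was 1 of 3 genes at an unadjusted p under 0.05, against 18.9% of all genes.

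The non-KO morulae of the Gabpb1 cross were themselves at lower Mcm3 values than those of the Alyref cross (72.0, 54.2 and 103 CPM), with a log2 fold change of -0.80 that was not called (SE 0.34, edgeR adjusted p = 0.178). Set against non-KO morulae from the Alyref and Gabpb1 crosses together, weighted equally, Mcm3 was lower by a log2 fold change of -2.09 (SE 0.29, edgeR adjusted p = 0.00217), where 1.77% of all genes were called. That reference was chosen after the data had been seen, and its value includes part of the difference between the crosses. The call rests on few embryos: without the second KO-labelled morula the edgeR adjusted p was 0.0644, leaving out non-KO morula 1 of the cross gave 0.132, and a fit of the KO-labelled and non-KO morulae by themselves gave 0.322. Scaled to the ERCC RNA, which put the all-gene median at -0.40, the Mcm3 fold change was -2.05 and the edgeR adjusted p 0.296.

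The other subunits of the ring gave values on both sides of 0 in that comparison. Mcm2, whose product meets MCM5 at the gate of the ring and also binds histones, was at 69.3, 59.3 and 72.0 CPM in the KO-labelled morulae and at 124 and 60.3 CPM in the non-KO morulae. Mcm5 was at 90.9, 48.6 and 63.8 CPM against 126 and 70.3 CPM. In both genes the 2 non-KO embryos differed from each other by more than the groups did, and the fold changes were -0.47 (SE 0.32) for Mcm2 and -0.53 (SE 0.34) for Mcm5. Mcm4, Mcm6 and Mcm7 form the catalytic core of the ring. Their log2 fold changes were -0.17 (SE 0.23), 0.05 (SE 0.36) and 0.07 (SE 0.23), and the edgeR adjusted p was 0.719 or more in each.

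As a part of the whole ring, Mcm3 made up 3.43%, 2.10% and 3.32% of the summed FPKM of Mcm2 to Mcm7 in the morulae labelled Gabpb1 KO. In the other 16 embryos its share was 6.96% to 14.7%, so the ranges did not overlap. This share uses no scaling between libraries. The ratio of Mcm3 to Mcm5, its neighbour in the ring, was 0.175, 0.193 and 0.285 in the KO-labelled embryos and 0.342 to 0.711 in the others. This ratio was not among those planned, and neither separation was compared with that of other genes. The share of Mcm7 was 21.9% to 22.8% in the KO-labelled morulae, and 24.7% in the second non-KO morula of the same cross. In the remaining 15 embryos it was 11.3% to 16.1%, and the Mcm7 level itself was not called.

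**Figure D2:**
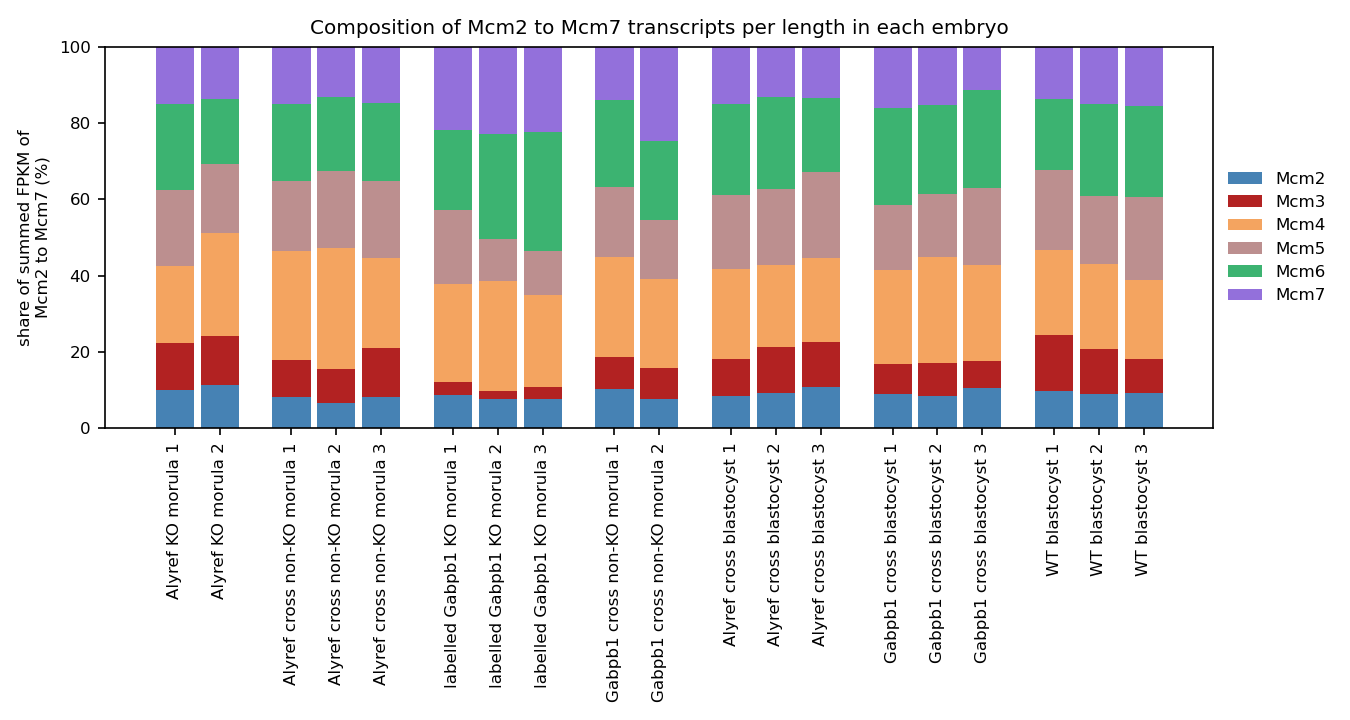
Share (%) of each of Mcm2 to Mcm7 in their summed FPKM, 1 stacked bar per embryo, grouped by condition. The Mcm3 segment is 2.10% to 3.43% in the 3 morulae labelled Gabpb1 KO and 6.96% to 14.7% in the other 16 embryos.

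The window just upstream of Mcm3 is printed because Mcm3 was the gene called. It holds the pentamer CCAAT, the letters bound by NF-Y, 3 times on either strand (capitals). Of the 8 genes 6 hold it at least once in a window, against 37.4% of all promoters.
Mcm3, chr1:20820313-20820432, minus strand, the 120 bases before the start: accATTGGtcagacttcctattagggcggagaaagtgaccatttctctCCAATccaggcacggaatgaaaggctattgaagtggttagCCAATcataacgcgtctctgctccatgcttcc
The heptamer CCGGAAG, a core of the sites that GABP and other ETS factors bind, was searched on both strands of the 300-base windows. Of the 8 genes only Mcm10 held it, against 8.86% of all promoters, so this exact heptamer is not in the Mcm3 window. Other letters that ETS factors bind were not searched, so the search does not show whether that window holds another ETS site.
Mcm10, chr2:5012902-5012931, minus strand: cagcctcaccaaCCGGAAGttctttgccca

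The licensing regulators had fold changes above 0 in the morulae labelled Gabpb1 KO, none of which passed the test, and under ERCC scaling those of Cdc6 and Gmnn were below 0. Cdt1 (ENSMUSG00000006585.3), the loader that carries the ring to the origin, was at 91.1, 89.8 and 98.6 CPM against 67.1 and 42.2 CPM in the non-KO morulae. The groups did not overlap, and the log2 fold change was 0.77 (SE 0.26, edgeR adjusted p = 0.136). Cdc6, the ATPase that works with the origin recognition complex, was at 80.8, 106 and 85.1 CPM against 77.0 and 56.2 CPM, a fold change of 0.44 (SE 0.29). Gmnn was at 219, 306 and 305 CPM against 236 and 149.8 CPM (0.52, SE 0.24), and Mcm10 had a fold change of 0.58 (SE 0.34). Non-overlapping higher values were found for 2 of the 10 genes (Cdt1 and Cdc6) against 15.8% of all genes, and lower ones for 1 (Mcm3) against 16.4%.

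Over the 10 genes, 6 were above 0 and 4 below in this comparison, against 52.9% and 46.4% of all genes, with a median log2 fold change of 0.06 beside 0.06 over all genes tested; under ERCC scaling 2 were above 0 and 8 below. Markers moved with this comparison too. The 7 trophectoderm markers summed to 333 to 2468 CPM in the KO-labelled morulae and 2494 to 3995 CPM in the non-KO morulae, with 0 of 7 called by edgeR and 2 at an unadjusted p under 0.05. The 5 epiblast markers summed to 343 to 429 CPM against 188 to 284 CPM, with 0 of 5 called by edgeR and 1 at an unadjusted p under 0.05. The 5 primitive endoderm markers had a median fold change of -2.11, with 4 of 5 below 0, 0 called by edgeR and 2 at an unadjusted p under 0.05, although their sum was 149.9 to 208 CPM against 125 to 150.1 CPM. The part of these markers in the values above was not tested.

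In Alyref KO morulae none of the 10 genes was called by edgeR, where 0.228% of all genes were. At an unadjusted p under 0.05 there were 3 (Mcm4, Mcm7 and Cdt1), against 12.1% of all genes, and DESeq2 called 1, Mcm4, against 3.09% of the genes it tested. The fold changes leaned down: 9 of 10 genes were below 0, against 52.5% of all genes, under TMM, RLE and ERCC scaling alike. Their median was -0.60 beside -0.04 over all genes. Against non-KO morulae of the Alyref and Gabpb1 crosses together, 9 of 10 were still below 0 but the median was -0.17, with Cdt1 at -0.15, Mcm3 at -0.09, Gmnn at -0.04 and Cdc6 at 0.78. Mcm4, Mcm5, Mcm7, Cdt1 and Gmnn lay below every non-KO morula of the cross, 5 of 10 against 12.3% of all genes, and 0 of 10 lay above against 12.5%.

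Mcm4 (ENSMUSG00000022673.4, chromosome 16, 15623897 to 15637400, minus strand) gave the lowest fold change of the 10 in Alyref KO. It was at 102 and 89.1 CPM in the 2 KO morulae and at 203, 186 and 177 CPM in the 3 non-KO morulae. The gap between the groups exceeded the range within either. The log2 fold change was -0.98 (SE 0.24) with an edgeR adjusted p of 0.101, and with DESeq2 the adjusted p was 0.00841. Mcm7 was at 92.9 and 55.6 CPM against 132, 95.2 and 138 CPM, a fold change of -0.71 (SE 0.24, edgeR adjusted p = 0.222). Its span overlaps those of Ap4m1 over 421 bases and Cops6 over 64 bases on the opposite strand. The strand setting of the counting is not given in the sources used here, and overlap of exons was not computed.

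For the remaining ring genes, none of them called, the second Alyref KO morula held the lower of the 2 KO values. Mcm5 was at 111 and 66.4 CPM against 145, 130.2 and 169 CPM, and its fold change was -0.74 (SE 0.35). Mcm6 was at 148 and 72.2 CPM against 188, 148 and 201 CPM, so that the first KO embryo met the lowest non-KO embryo. Mcm2 (-0.27, SE 0.33) and Mcm3 (-0.49, SE 0.33) overlapped between the groups. The summed FPKM of Mcm2 to Mcm7 was 140.6 and 91.7 in the KO morulae and 163 to 210.0 in the non-KO morulae. Mcm3 made up 12.3% and 12.9% of that sum in the KO embryos and 8.87% to 13.1% in the non-KO embryos. Low sums were not particular to Alyref KO. In the Gabpb1 cross the sum was 172 and 113 FPKM in the non-KO morulae and 111 to 137 in the KO-labelled morulae.

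Cdt1 and Cdc6, which load the ring together, had fold changes of opposite sign in Alyref KO, neither of them called. Cdt1 was at 97.7 and 59.3 CPM against 117, 183 and 117 CPM, with a log2 fold change of -0.83 (SE 0.26, edgeR adjusted p = 0.196); its span lies inside that of Gm20388, a gene model on the same strand at 9.17 CPM. Cdc6 was at 163 and 149.9 CPM, inside the range of 96.1, 192 and 87.0 CPM of the non-KO morulae, and was the only gene of the 10 with a fold change above 0 (0.33, SE 0.29). The ratio of Cdt1 to Cdc6 FPKM was 0.995 and 0.659 in the KO embryos and 1.25 to 2.43 in the other 17. This ratio was not among those planned, it joins 2 changes that were not called, and other gene pairs were not compared. Gmnn was at 208 and 244 CPM against 269, 276 and 303 CPM, a fold change of -0.32 (SE 0.24), and Mcm10 had one of -0.50 (SE 0.34).

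**Figure D3:**
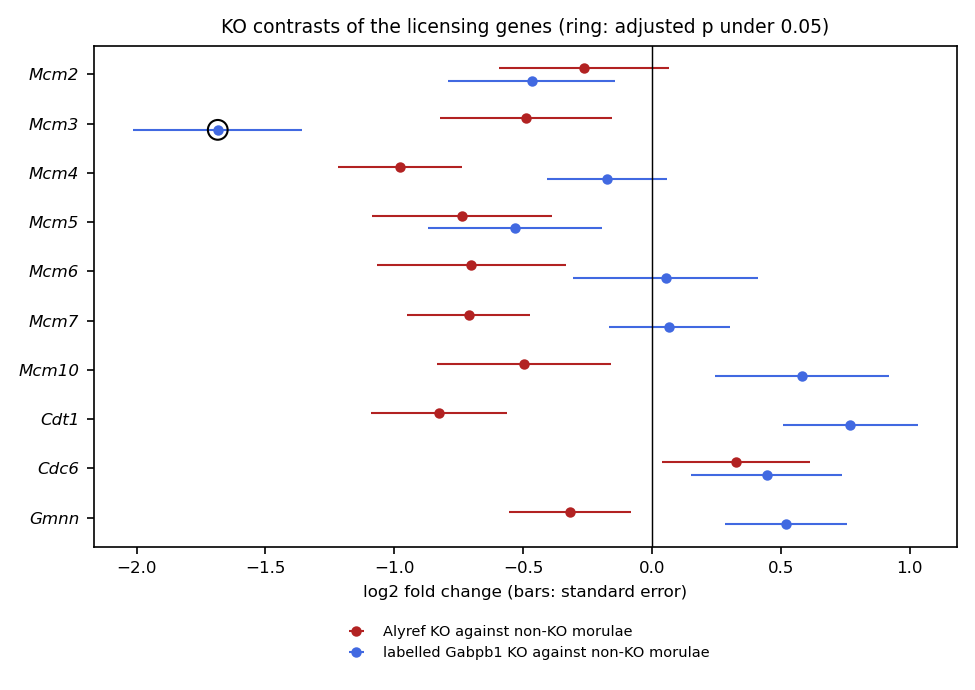
Log2 fold change (horizontal axis) with its standard error for the 10 licensing genes, in Alyref KO morulae (red) and in morulae labelled Gabpb1 KO (blue), each against the non-KO morulae of its own cross. The ring marks Mcm3, the 1 value with an edgeR adjusted p under 0.05; under ERCC scaling it was not called, and Mcm6, Mcm7, Cdc6 and Gmnn in the labelled Gabpb1 KO were below 0.

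Whether the KO contrasts of the 2 crosses differed was tested directly. None of the 10 genes was called by edgeR, against 0.907% of all genes, while 6 had an unadjusted p under 0.05, against 16.8%. Cdt1 came closest, with a difference of 1.60 on the log2 scale (Gabpb1 minus Alyref, SE 0.37, edgeR adjusted p = 0.0571), and DESeq2 called it, with an adjusted p of 0.00397, among 5.77% of the genes it tested. For Mcm3 the difference was -1.20 (SE 0.46, edgeR adjusted p = 0.210), so the Mcm3 change is not shown to be particular to the labelled Gabpb1 KO.

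Much of the Cdt1 difference lay in the non-KO morulae themselves. The 3 of the Alyref cross held 117, 183 and 117 CPM and the 2 of the Gabpb1 cross 67.1 and 42.2 CPM, and Cdt1 was called lower in the latter by a log2 fold change of -1.35 (SE 0.27, edgeR adjusted p = 0.0307). It was the 1 gene of 10 called, where 1.86% of all genes were called and 0.674% as lower. Cdc6 followed with -0.91 (SE 0.30, edgeR adjusted p = 0.105). At an unadjusted p under 0.05 there were 5 of 10, against 22.4% of all genes, and DESeq2 called 2, Cdt1 and Cdc6, against 10.7% of the genes it tested. All 10 genes were below 0, against 51.6% of all genes, but 3 were above 0 under ERCC scaling, which put the all-gene median at 0.39. Values did not overlap, with the Gabpb1 cross lower, for 7 of the 10 genes against 18.2% of all genes. The edgeR adjusted p for Cdt1 was 0.0884 when non-KO morula 1 of the Alyref cross was left out, 0.120 when morula 2 was, and 0.241 without the second non-KO morula of the Gabpb1 cross. Marker sums differed in this comparison. The epiblast sum was 188 to 284 CPM in the Gabpb1 cross and 526 to 567 CPM in the Alyref cross. Of its 5 markers 1 was called (Nanog, -1.38, edgeR adjusted p = 0.0334). The trophectoderm sum was 2494 to 3995 CPM against 594 to 1853 CPM, with 0 of 7 called by edgeR and 2 at an unadjusted p under 0.05. Their part in the Cdt1 value was not tested. The same morulae are the controls of the KO and stage comparisons, so those values are not independent of this one.

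Blastocysts were set against the non-KO morulae of their own cross, both taken at the same hour. In the Alyref cross Cdt1 was at 73.9, 82.3 and 87.3 CPM in blastocysts, below the 117, 183 and 117 CPM of the morulae. It fell by 0.78 on the log2 scale (SE 0.23, edgeR adjusted p = 0.0381) and was the 1 gene of 10 called, where 13% of all genes were called and 7.43% as lower. Cdc6 was at 74.3, 94.8 and 72.1 CPM in these blastocysts, with a fold change of -0.64 (SE 0.26, edgeR adjusted p = 0.108). These 2 genes had an unadjusted p under 0.05, against 31.1% of all genes. Mcm2, at 122, 137 and 138 CPM, lay above all 3 morulae (114, 75.9 and 117 CPM) with a fold change of 0.37 (SE 0.29), and was the 1 gene of 10 to do so against 19.6% of all genes. The 6 ring genes had fold changes between -0.20 and 0.37. The Cdt1 call was marginal: the edgeR adjusted p was 0.0599 without the first morula, 0.238 without the second, 0.128, 0.112 and 0.0775 without each blastocyst in turn, and 0.0502 without the second WT blastocyst. In that comparison the epiblast sum was 164 to 209 CPM in blastocysts and 526 to 567 CPM in morulae, with 3 of 5 markers called lower by edgeR. The trophectoderm sum was 4049 to 6589 CPM against 594 to 1853 CPM. Of its 7 markers edgeR called 2 higher (Krt8 and Krt18) and 1 lower (Tfap2c, -1.19), and all 7 had an unadjusted p under 0.05. The part of these markers in the Cdt1 value was not tested.

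In the Gabpb1 cross no gene at all was called between blastocysts and non-KO morulae by edgeR, 0% of those tested, and 2 of the 10 (Mcm4 and Gmnn) had an unadjusted p under 0.05 against 6.72% of all genes. DESeq2 called 51 genes, none of them among the 10. All 10 fold changes were above 0, against 51.6% of all genes, with a median of 0.57 beside 0.02; under ERCC scaling all 10 were below 0, at a median of -0.36 beside -0.86 over all genes. Gmnn was at 274, 433 and 274 CPM against 236 and 149.8 CPM (0.76, SE 0.24, edgeR adjusted p = 0.535). Mcm4, Cdt1, Cdc6 and Gmnn lay above both morulae, 4 of 10 against 11.4% of all genes. In a test of the difference between the stage effects, added after the data had been seen, none of the 10 was called by edgeR (0.00543% of all genes were), 4 had an unadjusted p under 0.05 (13.8% of all genes), and Cdt1 gave 1.31 (SE 0.35, edgeR adjusted p = 0.202).

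**Figure D4:**
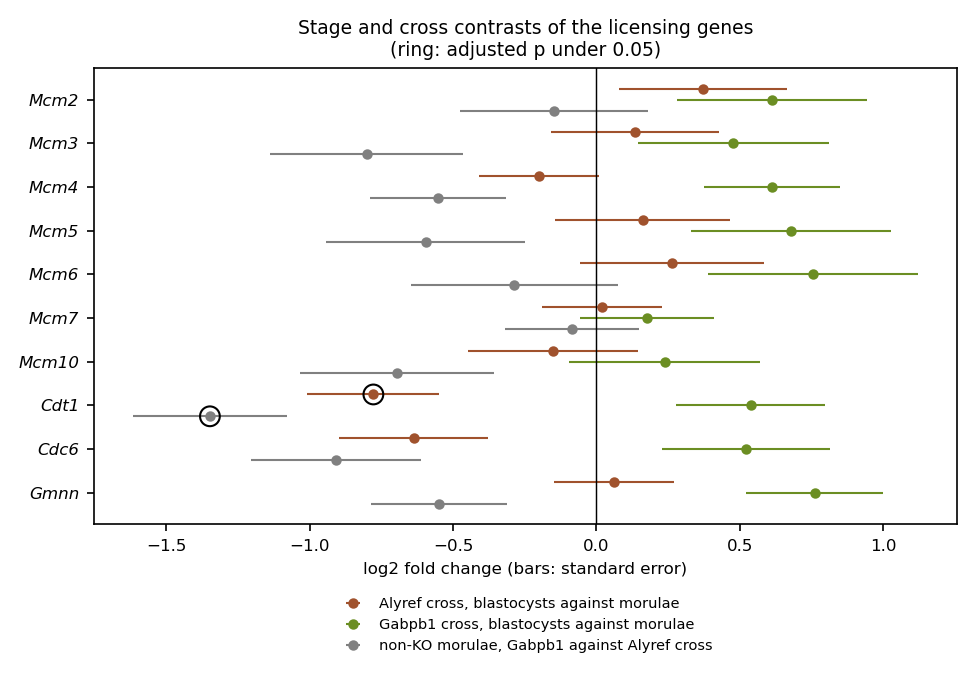
Log2 fold change with its standard error for the 10 licensing genes for blastocysts against non-KO morulae of the Alyref cross (brown) and the Gabpb1 cross (green), and for Gabpb1 cross against Alyref cross non-KO morulae (grey). Rings mark Cdt1, at -0.78 and -1.35; the 10 green values are above 0 here and below 0 under ERCC scaling.

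Blastocysts of either heterozygous cross gave no called gene against WT blastocysts by edgeR, 0% of those tested in each. Of the 10 genes, 0 in the Alyref cross and 1 in the Gabpb1 cross (Mcm4, 0.46, SE 0.21) had an unadjusted p under 0.05, against 2.94% and 6.1% of all genes. DESeq2 called 15 and 39 genes, none of them among the 10. Values lay above all WT blastocysts for 2 genes in each cross, Mcm2 and Mcm10 in the Alyref cross (6% of all genes) and Mcm4 and Cdc6 in the Gabpb1 cross (6.51%). The third blastocyst of the Gabpb1 cross held the highest level of Mcm2 (212 CPM), Mcm4 (261), Mcm5 (235), Mcm6 (345) and Mcm7 (145) of all 19 embryos. Its Mcm3, at 75.4 CPM, was inside the range of the others, and its Mcm3 share of 6.96% was the lowest outside the KO-labelled morulae.

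Geminin and CDT1 act against each other, so the ratio of their transcripts was taken in each embryo, as FPKM. It ran from 3.23 to 13.1 with a median of 7.14. It was 4.93, 3.23 and 5.53 in the Alyref cross non-KO morulae and 4.57 and 8.84 in the Alyref KO morulae, and the highest value was in the second Gabpb1 cross blastocyst. The morulae labelled Gabpb1 KO had ratios of 5.15, 7.31 and 6.63, below both non-KO morulae of their cross (7.55 and 7.60).

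Across the 19 embryos the ring subunits varied together to different degrees. The Pearson correlation of a gene's log2 level with the summed level of the other ring genes was 0.885 for Mcm2, 0.859 for Mcm5, 0.840 for Mcm4 and 0.831 for Mcm6, and 0.608 for Mcm3 and 0.559 for Mcm7. Without the morulae labelled Gabpb1 KO (n = 16) it was 0.853 for Mcm2, 0.931 for Mcm5, 0.818 for Mcm4, 0.931 for Mcm6, 0.642 for Mcm3 and 0.724 for Mcm7. For the other genes it was 0.402 for Gmnn, 0.352 for Mcm10, 0.305 for Cdt1 and -0.214 for Cdc6 over 19 embryos, and 0.469, 0.536, 0.412 and -0.244 over those 16. These are descriptions: the values share libraries and their scaling. Of 7008 genes compared, those whose pattern was most like the summed ring genes were Tomm40 (Pearson r 0.907, Spearman rho 0.865), Tcf25 (0.893, 0.823), Gnl1 (0.886, 0.854), Rras2 (0.857, 0.812) and Phb2 (0.852, 0.891), over 19 embryos.

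Beyond the 10 genes, 84 genes of 7 lists around replication were examined, of which 81 were tested. In the morulae labelled Gabpb1 KO 2 of the 81 fell, 0 rose and 23 had an unadjusted p under 0.05, with a median fold change of 0.07; over all genes 1.3% were called lower, 18.9% had such a p and the median was 0.06. The 2 called genes belong to the clamp loader that places the sliding clamp PCNA on DNA. Rfc2 was at 62.3, 57.3 and 65.5 CPM against 144 and 176 CPM, and it fell by 1.38 on the log2 scale (SE 0.20, edgeR adjusted p = 0.00340). Rfc3 was at 51.2, 34.9 and 29.7 CPM against 68.9 and 96.3 CPM, and it fell by 1.10 (SE 0.24, edgeR adjusted p = 0.0346). Both sets of values were below the non-KO morulae of the cross without overlap. The Rfc2 call was lost in 3 of 26 alternatives, with an edgeR adjusted p of up to 0.319, and the Rfc3 call in 10 of 26, with up to 0.503. Among these, Rfc2 lost its call without the second non-KO morula of the cross, and Rfc3 without any of 7 single embryos, that morula included. The direction was kept in all 26 for both genes, at -1.82 to -1.19 for Rfc2 and -1.40 to -0.84 for Rfc3. The RefSeq window of Rfc3 holds CCGGAAG in 2 places and 2 E2F octamers. Of all promoters 8.86% hold CCGGAAG and 2.26% an E2F octamer. For Rfc2, the other called gene, the search gave no CCGGAAG, and whether a window was held for Rfc2 was not recorded. The Rfc3 window is shown as that of the called gene with the ETS letters. These letters are a description and not evidence of binding in these embryos.
Rfc3, chr5:151651229-151651258, minus strand, ETS letters in capitals: tatCCGGAAGtcgccgggtgCCGGAAGtga
Rfc3, chr5:151651195-151651224, minus strand, E2F octamers in capitals: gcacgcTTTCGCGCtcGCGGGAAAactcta

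By list, the 2 falls were among 27 genes of fork synthesis, whose median fold change was 0.07. None of 8 genes of origin recognition (median -0.02), 13 of helicase activation (0.05), 5 MCM paralogs and partners (0.12), 11 of licensing factor degradation (0.13), 10 of the E2F and RB family (-0.46) or 7 of nucleotide supply (-0.09) was called there by edgeR. At an unadjusted p under 0.05 these 6 lists held 3, 2, 1, 2, 4 and 2 genes, beside 18.9% of all genes.

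In Alyref KO 1 of the 81 genes fell and 0 rose, 16 had an unadjusted p under 0.05, and the median fold change was -0.14; over all genes 0.228% were called, 12.1% had such a p and the median was -0.04. Dut, which removes dUTP and so keeps uracil out of DNA, was at 110.4 and 141 CPM against 249, 286 and 316 CPM, and it fell by 1.18 (SE 0.22, edgeR adjusted p = 0.0490). The 2 KO values were the lowest of all 19 embryos, and the share of all genes with such a separation was not computed. The call was lost in 17 of 26 alternatives, among them leaving out either KO morula (edgeR adjusted p of 0.254 and 0.224). Rfc2 was at 75.0 and 55.7 CPM in these KO embryos against 115, 133 and 121 CPM, a fold change of -0.91 that was not called (edgeR adjusted p = 0.0895). Rfc3 was at 108 and 134 CPM there, above the 81.5, 90.2 and 94.4 CPM of the non-KO morulae.

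**Figure D5:**
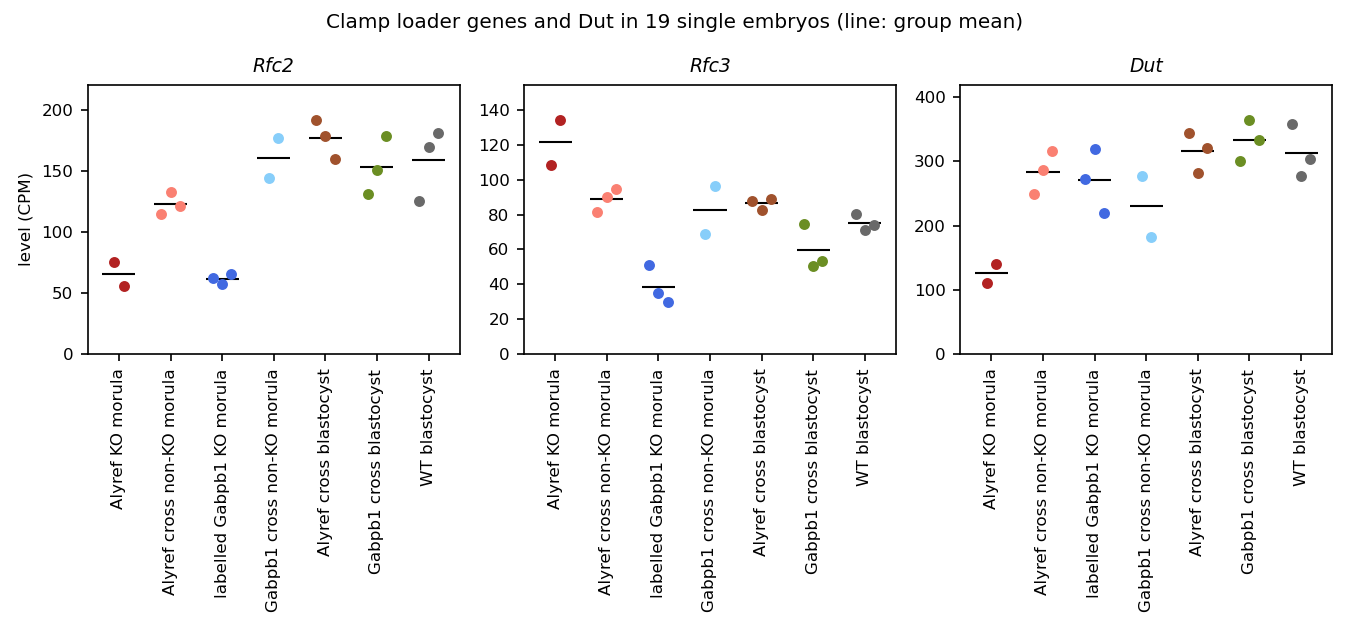
Level in CPM (vertical axis, from 0) of Rfc2, Rfc3 and Dut in the 19 embryos, by group; points are embryos and lines are group means. Rfc2 is lowest in both kinds of KO morula, Rfc3 is 29.7 to 51.2 CPM in morulae labelled Gabpb1 KO, and Dut is lowest in the 2 Alyref KO morulae.

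Among non-KO morulae, Gabpb1 cross against Alyref cross, 1 of the 81 genes was called, against 1.86% of all genes. It was Rb1, higher in the Gabpb1 cross (3.54, SE 0.86, edgeR adjusted p = 0.0498). The Rb1 call was lost in 17 of 25 alternatives, and Rb1 levels were low, at 1.36 to 2.66 CPM in the Alyref cross non-KO morulae. Between Alyref cross blastocysts and morulae 8 of the 81 were called, no larger a share than the 13% of all genes. Mcm8, an MCM paralog of homologous recombination, rose by 0.80 (SE 0.23) and Rpa3, a subunit of the single-strand binding complex, by 1.12 (SE 0.18). Orc1, the ATPase of the origin recognition complex (-1.02, SE 0.31), Lrwd1, its chromatin partner (-0.66, SE 0.18), Rif1, which restrains origin firing (-0.88, SE 0.23), and the polymerase subunits Pold3 (-1.11, SE 0.35) and Pole3 (-0.64, SE 0.19) fell, as did E2f6 (-1.24, SE 0.37). Of 25 alternatives, the stage call was lost in 18 for Pold3, 14 for Orc1, and 11 each for Pole3 and E2f6. It was lost in 8 each for Lrwd1, Mcm8 and Rif1, and in 2 for Rpa3. By stage in the Gabpb1 cross and against WT blastocysts 0 of the 81 were called by edgeR, beside 0% of all genes. In the stage comparison 7 of them had an unadjusted p under 0.05, against 6.72% of all genes. Against WT it was 0 in the Alyref cross and 4 in the Gabpb1 cross, beside 2.94% and 6.1% of all genes.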

How the data were processed

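The authors deposited 1 table of 19 embryo columns. Although it is named for FPKM, its deposited values are counts: whole numbers whose column totals differ. Submitters' processing notes name STAR, featureCounts, Trimmomatic, Trim Galore, cutadapt and mm10, with no versions. Of its rows 53379 are genes, and the 92 ERCC rows stayed out of library sizes. Of the 10 genes 9 have the same identifier, start and end in GENCODE M21.

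Tests used edgeR 4.0.16 (R 4.3.3), with TMM scaling, 1 mean for each of 7 groups and all 19 embryos in 1 fit. A gene was tested if its FPKM, computed here from counts and merged exon length, was 1 or more in at least 2 embryos (18410 of 39262 genes with any count). It is called at a Benjamini-Hochberg adjusted p under 0.05 over all tested genes. SE is the size of the log2 fold change over the square root of F. CPM use TMM-scaled library sizes. Every adjusted p is from edgeR's quasi-likelihood test unless DESeq2 (1.42.0) is named.

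The design assumed counts, with limma in reserve for FPKM. Tested on simulated data for the Alyref KO comparison (18410 genes), the test found 4.55% of simulated log2 changes of 1, 62.7% of those of 2 and 85.1% of those of 3, with 5 wrong calls. Named genes are the 10, and of each list the called genes, at most 5 per comparison, by adjusted p. The 10 genes, lists and alternatives were chosen with earlier results of these data known. Alternatives were ERCC scaling, RLE scaling, no filter, a replicate block, the compared groups alone, DESeq2 and each embryo left out. Reference morulae of both crosses, the stage difference and coding transcript lengths were added later. So were the ratios of Mcm3 to Mcm5 and of Cdt1 to Cdc6. Reads were amplified by PCR and carry no molecular identifiers.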

Additional observations from a re-analysis of the deposited data

Results flagged for a closer look

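By a test of the difference itself (Gabpb1 minus Alyref, log2 scale), the KO contrasts of the crosses differed for 2 of the 81 listed replication genes tested. Over all genes 0.907% were called. Dut differed by 1.41 (SE 0.31, edgeR adjusted p = 0.0438) and Rfc3 by -1.55 (SE 0.34, edgeR adjusted p = 0.0402). Each difference includes a contrast that was not called. These were Dut in the labelled Gabpb1 KO (0.23, edgeR adjusted p = 0.585) and Rfc3 in Alyref KO (0.45, edgeR adjusted p = 0.474). Each call was lost in 18 of 25 alternatives, with the direction kept in all 25. Without the second Gabpb1 cross non-KO morula the edgeR adjusted p was 0.199 for Dut and 0.194 for Rfc3.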

How the results depend on the processing

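The numbers of all genes called moved most. Under ERCC scaling they were 0 for Alyref KO (42 as reported), 26 for Gabpb1 KO (303), 10 for the KO difference (167), 352 for the Alyref stage (2402) and 2 between crosses (342). With the compared groups alone they were 0, 0, 0, 24 and 0, and with DESeq2 490, 1265, 894, 3739 and 1694, then 51 for the Gabpb1 stage and 15 and 39 against WT blastocysts (each 0 as reported). Alyref KO gave 13 with no filter, 8 with the replicate block and 262 against morulae of both crosses, and Gabpb1 against WT gave 1 with no filter. Leaving out 1 embryo gave 0 to 128 for Alyref KO, 48 to 966 for Gabpb1 KO, 16 to 707 for the KO difference, 346 to 4560 and 0 to 6 for the Alyref and Gabpb1 stage, 0 to 2435 between crosses and 0 to 1 against WT. Calls as higher and lower were 64 and 239 for Gabpb1 KO (0 and 26 under ERCC scaling, 467 and 798 with DESeq2), 66 and 101 for the KO difference (0 and 10), 1035 and 1367 for the Alyref stage (31 and 321) and 218 and 124 between crosses (2 and 0).

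Of the 10 members, DESeq2 called 1 in Alyref KO, 1 in the KO difference and 2 between crosses. For Gabpb1 KO and between crosses, members called went from 1 to 0 under ERCC scaling and with the compared groups alone, and for the Alyref stage to 0 under these, with no filter and with the replicate block. Without 1 embryo the range was 0 to 1 for Gabpb1 KO and the KO difference and 0 to 2 for the Alyref stage and between crosses. In Gabpb1 KO the sign turned for Mcm6 (ERCC scaling -0.52, no filter -0.029, replicate block -0.035, both crosses -0.090, without 1 embryo -0.28 to 0.48), Mcm7 (ERCC -0.40, no filter -0.013, without 1 embryo -0.042 to 0.18), Cdc6 (ERCC -0.11, both crosses -0.0096), Gmnn (ERCC -0.064), Mcm2 (without 1 embryo -0.90 to 0.15) and Mcm4 (-0.51 to 0.26). In the Gabpb1 stage ERCC scaling gave -0.15 for Gmnn and -0.35 for Mcm4. The cause was not tested, except that smaller fits hold fewer embryos; a group left with 1 embryo is assumed to vary like the others.

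Embryos that share a replicate number deviated together with a correlation of -0.156 to 0.168, so the numbers do not pair them. With the replicate block the edgeR adjusted p was 0.0529 for Cdt1 in the Alyref stage and 0.0523 for Rfc3 in Gabpb1 KO. Small changes are mostly out of reach: in simulation of the Alyref KO comparison 4.55% of log2 changes of 1 were recovered, and depth was not varied.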
